A study of Homo sapiens with 16 samples.

Results

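Lactate export and acid-base control were examined through 8 genes in 4 related pairs: LDHA and LDHB, SLC16A3 and SLC16A1, PDK1 and PDK3, and CA9 and CA12. The members were the genes themselves, and their data were all peaks whose centre lay within 50 kb of a protein-coding start site of a member (GENCODE on GRCh37). Of 19821 protein-coding genes these are 8, and of 23398 peaks in the 16 lists 88 fell in their windows. Of the 88 peaks, 77 had the member as the nearest protein-coding gene and 56 lay within 1 kb of one of its start sites.

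The peaks came from chromatin immunoprecipitation and sequencing of HIF-1α (antibody PM14) and HIF-2α (antibody PM9), the oxygen-regulated subunits of hypoxia-inducible factor, in cancer cells held at 0.5% oxygen for 16 h. The 4 established lines were A549 (lung), HCT116 (colorectal), PC3 (prostate) and T47D (breast), and each line and isoform had 2 libraries, so that there were 8 groups. All groups shared the hypoxic treatment, and no normoxic or pre-immune library was analysed here, so every value is a position within a hypoxic peak list. A549 and PC3 shared a medium (F12K), while HCT116 and T47D each had another, so for these lines medium and line cannot be told apart. The lists were of very unequal length, from 275 peaks (PC3 HIF-2α replicate 1) to 4505 peaks (HCT116 HIF-1α replicate 2), and the sequencing depth behind them is unknown.

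Glycolytic cells turn pyruvate into lactate with lactate dehydrogenase, whose subunits are encoded by LDHA and LDHB. The lactate leaves the cell together with a proton through monocarboxylate transporters, of which MCT4 (SLC16A3) is known mainly for export and MCT1 (SLC16A1) for transport in either direction. The pyruvate dehydrogenase kinases PDK1 and PDK3 phosphorylate and inhibit pyruvate dehydrogenase, which limits the conversion of pyruvate to acetyl-CoA in the mitochondrion. Carbonic anhydrases IX and XII (CA9 and CA12) sit on the outer face of the plasma membrane and interconvert carbon dioxide and bicarbonate, and CA9 is a widely used marker of hypoxic cells. HIF dimers bind a short core, ACGTG or GCGTG, in either orientation.

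The stretches that carried the recurrent peaks are given first, since the position of the core relative to the peaks recurs through the results. Sequences are from the plus strand of GRCh37, in lower case with each copy of the core, in either orientation, in capitals. CACGTG reads as ACGTG on both strands and was counted once.
LDHA promoter, chr11:18416026-18416126: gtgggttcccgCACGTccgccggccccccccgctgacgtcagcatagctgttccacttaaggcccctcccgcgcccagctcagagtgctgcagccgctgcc
LDHA promoter, closest pair of cores, chr11:18416015-18416049: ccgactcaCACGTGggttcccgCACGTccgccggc
SLC16A3 intron, chr17:80188878-80188978: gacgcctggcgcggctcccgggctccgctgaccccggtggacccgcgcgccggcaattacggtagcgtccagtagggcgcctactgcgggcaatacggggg
SLC16A3 intron, closest pair of cores, chr17:80188989-80189018: ggcgcggtCACGTccccCACGTcccgcggc
PDK1 promoter, chr2:173420798-173420827: cgcCACGTccctCACGTaccactcggcaga
PDK3 promoter, chrX:24483318-24483418: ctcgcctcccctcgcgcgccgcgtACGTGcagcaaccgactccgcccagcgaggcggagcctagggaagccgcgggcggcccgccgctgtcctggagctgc
CA9 promoter, chr9:35673833-35673933: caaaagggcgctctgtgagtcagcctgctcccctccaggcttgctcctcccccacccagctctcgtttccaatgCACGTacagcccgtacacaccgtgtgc
CCDC107 and RMRP, chr9:35657909-35658009: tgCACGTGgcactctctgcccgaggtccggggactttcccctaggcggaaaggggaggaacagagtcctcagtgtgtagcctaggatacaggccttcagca
CA12 intron, chr15:63664779-63664879: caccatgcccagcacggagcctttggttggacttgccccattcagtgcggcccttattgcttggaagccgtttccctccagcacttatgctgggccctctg
SLC16A1 promoter, chr1:113498785-113498814: cagctagccagtCACGTcgcagctcaccac
LDHB first intron, chr12:21810332-21810361: cagctactcgggCACGTGtcccgactcccg

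Each of the longer stretches is centred on the median centre of the peaks at that site. Where such a stretch held more than 30 bases of annotated untranslated region, 30 bases around the nearest core are printed instead (PDK1, SLC16A1 and LDHB). The closest pairs of cores and the CA9 promoter were chosen for printing after the values had been seen. The stretches at the CA12 and SLC16A3 centres held no core, and at SLC16A3 the closest pair began just downstream of the stretch.

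Binding was read from each list as the score percentile, that is, the share of a library's peaks whose score was no higher than that of the peak in question. For a gene it is the highest percentile of any peak within 50 kb, and 0 stands for no listed peak, which is not the same as no binding. The 8 genes fell into 3 patterns. LDHA, SLC16A3 and PDK1 had a peak in all 16 lists, which held for 0.237% of all protein-coding genes (47 of 19821). PDK3 had a peak in all 8 HIF-1α lists and in none of the 8 HIF-2α lists, a pattern also shown by 0.237% of all genes. CA9, CA12, SLC16A1 and LDHB had peaks in 10, 7, 2 and 1 lists.

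**Figure D1:**
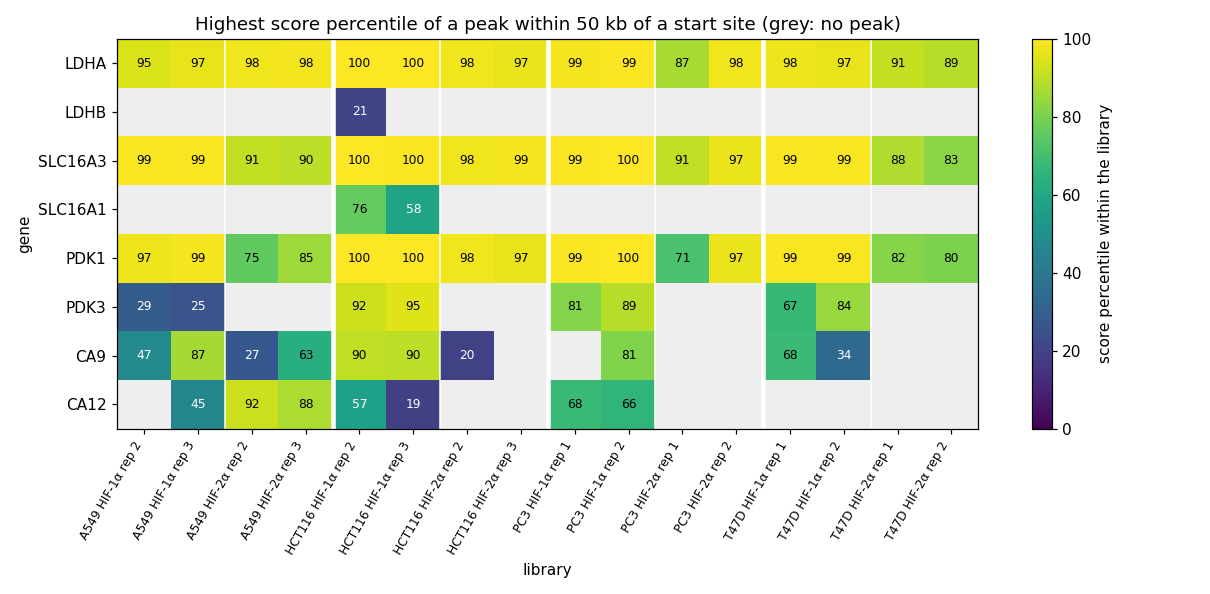
Score percentile (colour and number) of the highest peak within 50 kb of each gene (rows) in each of the 16 libraries (columns), with grey cells where the list held no peak. LDHA, SLC16A3 and PDK1 are filled in all 16 columns, PDK3 only in the 8 HIF-1α columns, and LDHB in 1.

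Counting only genes with a peak in both replicates of a group, 5 of the 8 members were present for HIF-1α in A549, against 2.6% of all protein-coding genes. In HCT116 HIF-1α, 7 members were present against 27.7% of all genes. In PC3 and T47D HIF-1α, 5 members were present in each, against 12.5% and 5.19% of all genes. LDHB was the member missing from HCT116 HIF-1α. For HIF-2α, 5 members were present in A549 against 4.64% of all genes, and 3 members in each of HCT116, PC3 and T47D against 3.82%, 1.2% and 1.31%. The 3 members present in those lines were LDHA, SLC16A3 and PDK1.

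LDHA encodes the lactate dehydrogenase subunit that dominates in glycolytic tissue. Its promoter site, chr11:18415141-18417047, was covered in all 16 lists over a shared stretch of 594 bp, and its median centre lay 34 bp upstream of the representative start site. Peak centres of the 16 libraries were spread over no more than 168 bp. The score percentile in A549 was 94.8 and 96.5 for HIF-1α (replicates 2 and 3) and 98.0 and 98.2 for HIF-2α. In HCT116 it was 99.8 and 99.7 for HIF-1α and 97.9 and 96.9 for HIF-2α. HIF-1α values were thus the lower ones in A549 and the higher ones in HCT116, with no overlap in either line. In PC3 the percentile was 98.5 and 99.4 for HIF-1α (replicates 1 and 2) and 86.9 and 97.8 for HIF-2α. In T47D it was 97.5 and 96.8 for HIF-1α and 91.0 and 89.4 for HIF-2α. HIF-1α was the higher isoform in these lines as well, and the lowest value of the 16 was in the shortest list.

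Over all lines the LDHA percentile was 97.9 ± 1.79 for HIF-1α and 94.5 ± 4.63 for HIF-2α (SD, n = 8 libraries each), a difference of 3.35 percentile points. The exact two-sided permutation test within lines gave p = 0.0648, or 0.406 after Benjamini-Hochberg adjustment over 11820 genes, so that an isoform difference at LDHA was not detected. Without A549, the only line with HIF-2α higher, the difference was 5.29 points. The exact permutation p was then 0.00926, the smallest that 3 lines allow (adjusted p = 0.190). A549 was singled out by its own direction, so this p adds no support. Leaving out HCT116, PC3 or T47D instead gave 3.7, 2.26 and 2.16 points (exact permutation p = 0.139, 0.176 and 0.389). The promoter's shared stretch held 6 cores. A further site 10489 bp upstream of the representative start, chr11:18404809-18406591, was listed in 4 libraries. Its percentile was 83.3 and 60.9 in A549 HIF-2α, 29.3 in PC3 HIF-2α replicate 2 and 6.77 in PC3 HIF-1α replicate 2, and the stretch shared by these 4 peaks held 0 cores. LDHB encodes the subunit that dominates in oxidative tissue. It had a single peak over its start sites, in HCT116 HIF-1α replicate 2 at percentile 21.04, in the longest of the 16 lists. A single peak leaves the exact permutation test only 1 possible outcome (p = 1), so it cannot compare the isoforms there. LDHA thus had the higher percentile of the pair in 16 of 16 libraries.

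SLC16A3 has 13 annotated protein-coding start sites. Its recurrent site, chr17:80183934-80191478, had its median centre in intron 1 of the representative transcript and is called the SLC16A3 intron after it. This centre lay 2010 bp downstream of the representative start and 1180 bp upstream of an alternative start. The merged site spanned 7 start sites, the representative one among them. The HCT116 HIF-1α peaks were centred 1006 and 42 bp downstream of the representative start. The stretch covered in all 16 lists was 805 bp long, and peak centres were spread over 2637 bp. In A549 the percentile was 99.2 and 99.2 for HIF-1α and 90.7 and 90.2 for HIF-2α. In HCT116 it was 99.6 and 99.5 for HIF-1α and 97.9 and 98.7 for HIF-2α. HIF-1α peaks stood at or near the top of their lists, and the isoforms did not overlap in either line. In PC3 the percentile was 99.5 and 99.6 for HIF-1α and 90.5 and 97.1 for HIF-2α. In T47D it was 99.1 and 99.0 for HIF-1α and 88.2 and 82.5 for HIF-2α. Every HIF-1α value was therefore above every HIF-2α value of the same line.

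The SLC16A3 percentile was 99.3 ± 0.251 for HIF-1α and 92.0 ± 5.56 for HIF-2α (SD, n = 8 libraries each), a difference of 7.37 points. The exact permutation p was 0.00154, the smallest that 1296 relabellings allow, and 1.7% of all genes tested (201 of 11820) reached it with HIF-1α higher, against 0.00846% with HIF-2α higher. Adjusted over the 11820 genes it was 0.0903, and 0% of genes passed an adjusted p of 0.05 in either direction (1182 genes had an unadjusted p under 0.05 with HIF-1α higher and 16 with HIF-2α higher). When only the 3789 genes with a peak in at least 4 libraries were tested, the SLC16A3 adjusted p was 0.0289, and 10.9% of those genes passed with HIF-1α higher and 0.0264% with HIF-2α higher. A further 4 sites in the SLC16A3 window were listed in 1 or 2 libraries each, at percentiles from 17.05 to 74.7, and at 2 of them the nearest gene was another one (CCDC57 and CSNK1D). SLC16A1 had a promoter peak only in HCT116 HIF-1α, at percentiles 76.0 and 58.3, centred 8 bp upstream of its representative start (chr1:113497966-113499632). With peaks in a single group, the exact permutation test could not give a p below the 0.333 observed (adjusted p = 0.683). It therefore decides nothing about the isoforms at SLC16A1, and HCT116 HIF-1α had the longest lists. SLC16A3 had the higher percentile of the pair in 16 of 16 libraries.

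**Figure D2:**
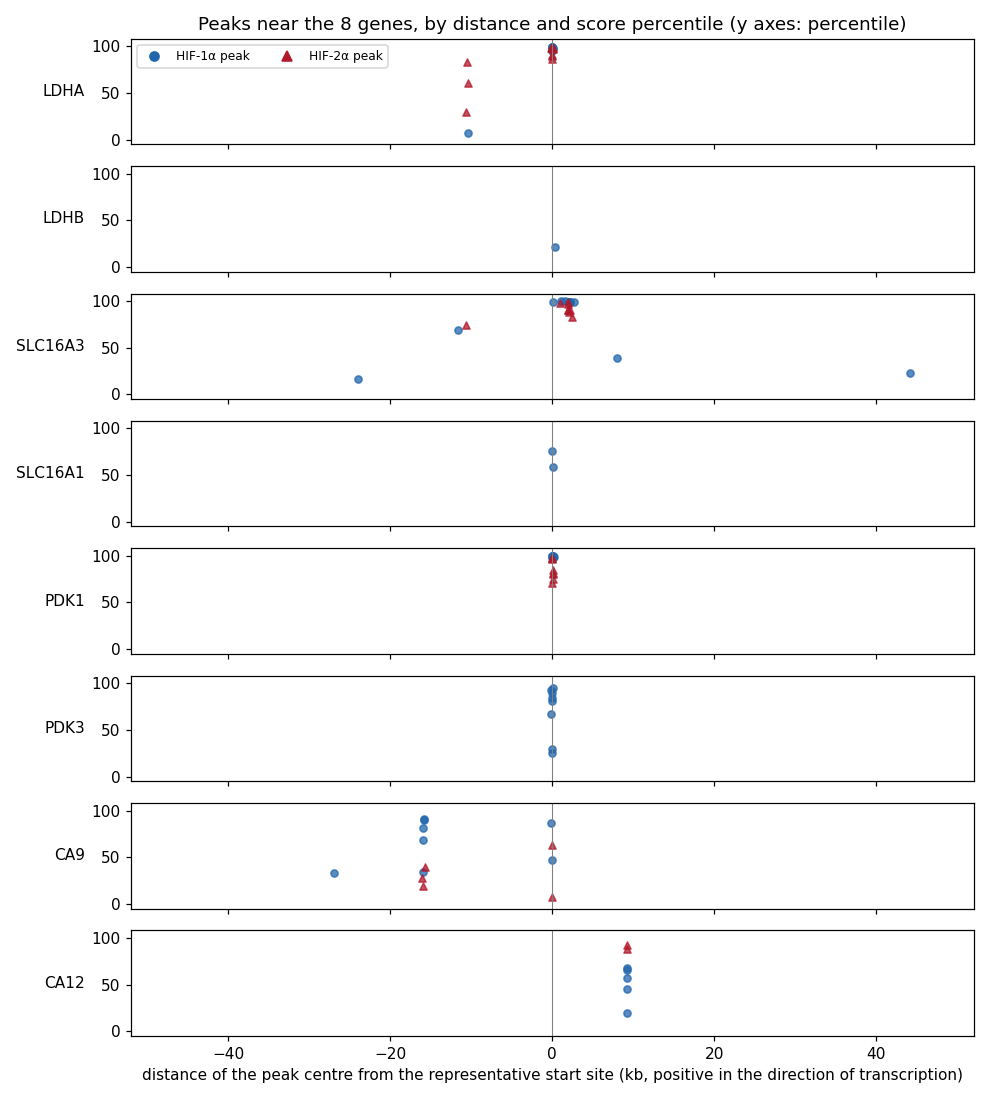
Distance of every peak centre within 50 kb from the representative start site of each gene (x axis, kb) against its score percentile (y axes), with HIF-1α peaks as blue circles and HIF-2α peaks as red triangles. Peaks cluster at the start of LDHA, PDK1 and PDK3, 2010 bp downstream of it at SLC16A3 and 9216 bp downstream of it at CA12, and CA9 has peaks both at its start and 15966 bp upstream.

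PDK1 was bound at its start site in all 16 lists (chr2:173419872-173421825), with a median centre 37 bp downstream of the representative start, in the untranslated part of exon 1. The antisense long noncoding RNA gene PDK1-AS1 also lies over this centre. In A549 the percentile was 97.4 and 98.7 for HIF-1α and 75.5 and 85.2 for HIF-2α. In HCT116 it was 99.9 and 99.7 for HIF-1α and 97.8 and 96.8 for HIF-2α. The isoforms were far apart in A549 and close together in HCT116, without overlap in either. In PC3 the percentile was 99.3 and 99.8 for HIF-1α and 71.3 and 97.2 for HIF-2α. In T47D it was 98.9 and 98.9 for HIF-1α and 81.8 and 80.2 for HIF-2α. The PC3 HIF-2α replicates differed widely, and the lower of them came from the shortest list.

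The PDK1 percentile was 99.1 ± 0.822 for HIF-1α and 85.7 ± 10.4 for HIF-2α (SD, n = 8 libraries each), a difference of 13.4 points with the higher value for HIF-1α in 4 of 4 lines. The exact permutation p was 0.00154 and the adjusted p 0.0903 over all genes tested, or 0.0289 among genes with a peak in at least 4 libraries. The shared stretch of 555 bp held 2 cores, which are the pair printed above.

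PDK3 showed the sharpest division between the isoforms among the 8 genes. Its promoter site, chrX:24482746-24484015, was centred 35 bp upstream of the start and was listed in all 8 HIF-1α libraries and in 0 HIF-2α libraries. HCT116 had HIF-1α percentiles of 92.5 and 95.0, PC3 of 81.3 and 89.2, T47D of 66.9 and 84.4, and A549 of 29.3 and 25.4. A549 therefore held the lowest values, in the shortest HIF-1α lists (382 and 629 peaks), and HCT116 the highest. The mean was 70.5 ± 28.0 for HIF-1α (SD, n = 8 libraries) against 0 for HIF-2α. The exact permutation p was 0.00154 and the adjusted p 0.0903. PDK3 entered the test through its HIF-1α lists alone, so this p restates the pattern of presence and adds no support to it. When each list was cut to its 275 strongest peaks the difference was 34.4 points with an exact permutation p of 0.0833 (adjusted p = 0.405). This p again rests on HIF-1α lists alone. The peak then remained in both replicates of 1 group only. PDK1 had the higher percentile of the pair in 16 of 16 libraries.

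Across all union sites (peaks of different libraries overlapping by at least 1 bp), 24 of 11664 were held in all 16 lists, and the LDHA promoter, the SLC16A3 intron and the PDK1 promoter were 3 of them. Another 29 sites were held in all 8 HIF-1α and no HIF-2α list, of which the PDK3 promoter was 1, and 0 sites showed the opposite. In the exact permutation test over sites 0% passed an adjusted p of 0.05 (445 sites had an unadjusted p under 0.05 with HIF-1α higher and 26 with HIF-2α higher). The SLC16A3, PDK1 and PDK3 sites had an adjusted p of 0.191 in it, and the PDK3 site entered through its HIF-1α lists alone.

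**Figure D3:**
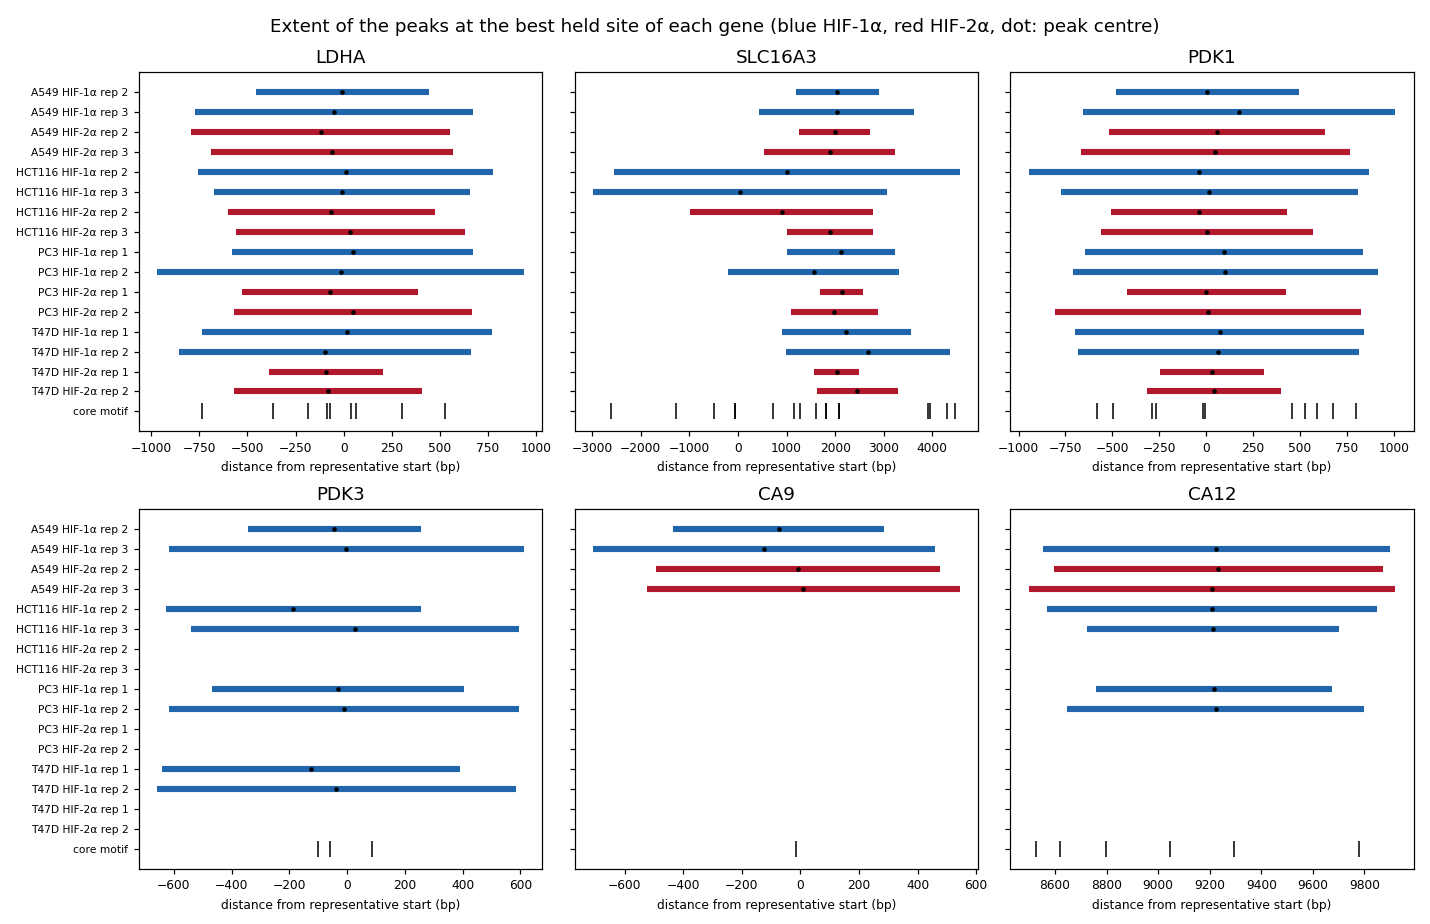
Extent of each library's peak (bars, blue for HIF-1α and red for HIF-2α, with the peak centre as a dot) at the site nearest to each of 6 genes that most libraries held, against distance from the representative start site (bp), with copies of the core motif as ticks in the bottom row. Bars fill all 16 rows at LDHA, SLC16A3 and PDK1, the 8 HIF-1α rows at PDK3, the 4 A549 rows at CA9 and 7 rows at CA12.

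CA9 had a peak at its own promoter in A549 only. The site, chr9:35673217-35674468, was centred 42 bp upstream of the start, within the annotated extent of the neighbouring gene ARHGEF39. In A549 it stood at percentile 47.1 and 86.6 for HIF-1α and 7.09 and 63.1 for HIF-2α, so the replicates differed by more than the isoforms and the ranges overlapped. The 12 libraries of the other lines listed no peak there. The shared stretch of the 4 peaks, 721 bp long, held a single core, which is printed above.

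Most other peaks of the CA9 window lay at a site 15966 bp upstream, chr9:35657195-35659031. This site lay 328 bp from the nearest start of CCDC107 and over RMRP, the gene of a noncoding RNA of the RNase MRP complex. It was listed in 8 libraries. For HIF-1α it stood at percentile 90.4 and 90.1 in HCT116, 81.1 in PC3 replicate 2, and 68.2 and 34.2 in T47D. For HIF-2α it stood at 27.4 and 39.5 in A549 and 19.5 in HCT116 replicate 2. A further site, nearest to SIT1, was listed in HCT116 HIF-1α replicate 2 alone, at percentile 33.4. At the site over RMRP, A549 was thus the line in which HIF-1α had no peak and HIF-2α had one in both replicates. Taken over the whole 50 kb window, CA9 had a percentile of 62.2 ± 32.6 for HIF-1α and 13.7 ± 22.7 for HIF-2α (SD, n = 8 libraries each), a difference of 48.5 points (exact permutation p = 0.00926, adjusted p = 0.193). Within 10 kb, which leaves the promoter peaks alone, the difference was 7.95 points (exact permutation p = 0.667, adjusted p = 1), so the larger difference rested on the upstream site.

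CA12 was bound within the gene. Its only site, chr15:63664126-63665547, lay in intron 2, 9216 bp downstream of the representative start, and its 7 peak centres fell within 25 bp of each other. For HIF-2α it was listed in A549 alone, at percentiles 92.2 and 87.9. For HIF-1α it was listed at 45.5 in A549 replicate 3, at 57.4 and 19.01 in HCT116, and at 67.8 and 65.6 in PC3. T47D had no peak for either isoform. The highest values were thus for HIF-2α in A549, and HIF-1α was the isoform listed in HCT116 and PC3. The mean difference over lines was 9.40 points in favour of HIF-1α and did not pass the test (exact permutation p = 0.648, adjusted p = 1), and its sign turned to -22.5 points with 275 peaks per list. Within 50 kb, CA9 had the higher percentile of the pair in 8 libraries and CA12 in 3, and 5 libraries had a peak at neither. This count leans on the site over RMRP, which gave the CA9 value wherever CA9 was higher in HCT116, PC3 and T47D. The CA9 promoter itself had no peak in those lines, whereas CA12 was listed for HIF-1α in both replicates of HCT116 and PC3.

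**Figure D4:**
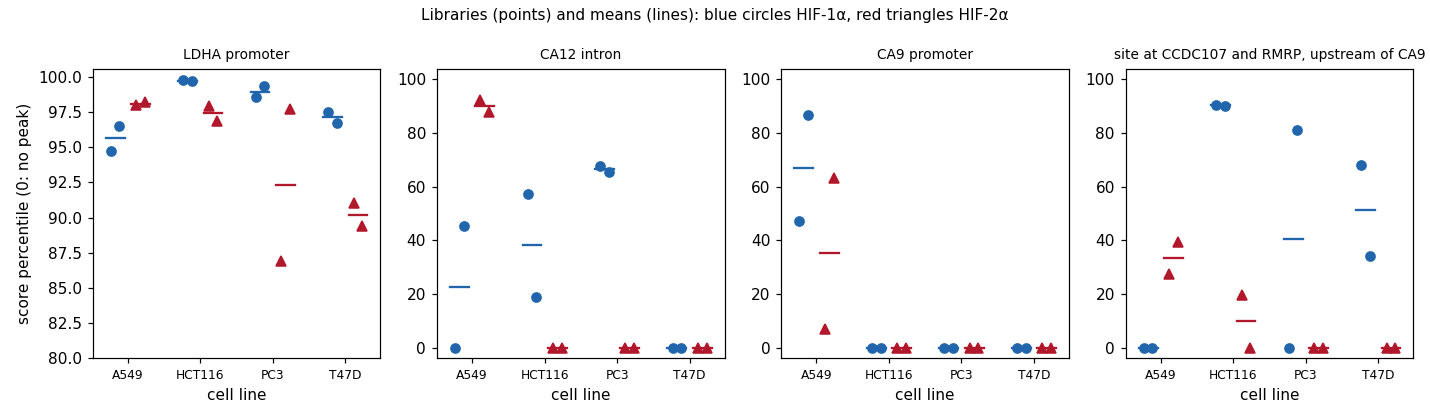
Score percentile of each library (points) and the mean of 2 replicates (lines) by cell line at 4 sites, with blue circles for HIF-1α, red triangles for HIF-2α and 0 for no peak (the LDHA axis starts at 80). In A549 the HIF-2α points lie above the HIF-1α points at the LDHA promoter, the CA12 intron and the site at CCDC107 and RMRP, while in HCT116 the HIF-1α points lie above at these 3 sites.

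Cell lines were compared separately for each isoform, by asking whether the replicates of a line lay closer together than other pairings of the 8 libraries. For HIF-1α the exact one-sided permutation p was 0.00952 for LDHA, the smallest that the pairings of 8 libraries allow, 0.0190 for PDK1, 0.0286 for SLC16A3 and 0.0381 for PDK3, and an unadjusted p under 0.05 was reached by 10.9% of 10771 genes. None passed adjustment in this exact test (adjusted p = 0.298 for LDHA, PDK1 and SLC16A3 and 0.335 for PDK3), as 0% of all genes did. From lowest to highest, A549 had an LDHA percentile for HIF-1α of 95.6 ± 1.23, T47D of 97.1 ± 0.522, PC3 of 99.0 ± 0.570 and HCT116 of 99.7 ± 0.0332 (SD, n = 2 libraries each). This order of the 4 lines was also that of their HIF-1α list lengths, so line and list length cannot be told apart.

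Of these 4 genes PDK3 had the widest spread between lines, with HIF-1α percentiles of 93.7 ± 1.81 in HCT116, 85.3 ± 5.63 in PC3, 75.6 ± 12.4 in T47D and 27.4 ± 2.75 in A549 (SD, n = 2 libraries each). T47D and PC3 did not differ beyond their spread, and the order was again that of list length. CA9 and CA12 gave an exact permutation p of 0.495 and 0.114 for HIF-1α. For HIF-2α, SLC16A3 had an exact permutation p of 0.0190 (adjusted p = 0.653), an unadjusted p under 0.05 was reached by 2.57% of 4973 genes, and 0% passed adjustment. LDHA and PDK1 had an exact permutation p of 0.324 and 0.476 for HIF-2α.

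Over the 8 members the median difference between isoforms was 11.4 percentile points, against 7.97 over the 11820 genes tested, and HIF-1α was the higher isoform on average in 8 of 8 members and in 9838 of 11820 genes. The lean towards HIF-1α was therefore common to the tested genes. LDHB, SLC16A1 and PDK3 had no HIF-2α peak, so their direction was fixed by how they entered. The same holds for any other gene with peaks of 1 isoform only, so these counts and medians are a description. The lists of HIF-1α were longer than those of HIF-2α in HCT116, PC3 and T47D, where list length and isoform move together, and their part in the differences was not tested.

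Other genes of lactate, pyruvate and acid-base handling were taken from 6 lists of 64 genes. A peak within 50 kb was found in at least 1 library for 42 of the 64, against 11820 of 19821 protein-coding genes, and in at least 8 libraries for 1 of the 64, against 863 of 19821. That gene was LDHC, the testis lactate dehydrogenase, whose peaks were those of the LDHA promoter. None of the 64 had peaks nearest to itself in 8 or more libraries, against 306 of 19821 protein-coding genes. None passed the isoform test, as 0 of all 11820 genes tested did. Of 5 lactate dehydrogenase genes 4 had a peak, none of them the nearest gene to it. Of 9 transporter and chaperone genes 5 had a peak, of 14 pyruvate genes 10, of 12 carbonic anhydrases 10, of 20 proton and bicarbonate transporters 10, and of 4 proton-sensing receptors 3.

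After LDHC the related genes with most lists were SLC26A6, an anion exchanger, with 7 libraries and PC, pyruvate carboxylase, with 6. SLC26A6 was never the nearest gene to its peaks, whereas PC was in all 6. PC was listed in 3 HIF-1α and 3 HIF-2α libraries (difference -14.5 points, exact permutation p = 0.454, adjusted p = 0.857). Another 4 genes were tied at 5 libraries. CA11, GPR132 (a proton-sensing receptor) and LDHD each had 4 of these for HIF-1α. SLC4A2, a chloride-bicarbonate exchanger, had all 5 for HIF-1α (exact permutation p = 0.0278, adjusted p = 0.292). It entered the test through these lists alone, so its p restates their presence. GPR132 was the nearest gene in all 5, and CA11, LDHD and SLC4A2 in 0.

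The genes elsewhere in the genome with the most similar percentiles over the 16 libraries were named for each member with at least 8 libraries. For SLC16A3 this was GPI, glucose-6-phosphate isomerase of glycolysis, with a mean absolute difference of 1.73 percentile points, together with an unnamed gene model that shares its peaks. For PDK1 it was SLC16A3 itself, at 3.35 points, tied with CCDC57, whose window holds the same peaks. For LDHA the most similar were FBXO16 and ZNF395 at 2.02 and 2.14 points. FBXO16 was nearest to none of its peaks and ZNF395 to peaks in all 16 libraries. For PDK3 they were SLC12A5 and USP28 at 3.68 and 4.10 points, both with peaks in 7 HIF-1α and 0 HIF-2α libraries. SLC12A5 was nearest to none of its peaks and USP28 to peaks in all 7 libraries. For CA9 they were the histone genes H1-1 and H3C1 at 12.01 points, which were nearest to none of their peaks. Both had peaks in 7 HIF-1α and 0 HIF-2α libraries, against 7 and 3 for CA9. Outside A549 the CA9 values compared here came from the site over RMRP, not from its promoter.

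The core was common in the peaks as a whole. It was present, in either orientation, in 64.2% of 300-base windows around the median centres of all 11664 sites, in 22 of the 24 sites held in all lists, and in 56.5% of promoters of the same length (250 bases before to 50 after the representative start). The windows at the LDHA, SLC16A3 and PDK1 sites held 5, 2 and 2 cores, and that at PDK3 held 3. Those at the CA9 promoter and the CA12 intron held 1 each, and that over RMRP held 5. Promoter windows were anchored at the start instead. Those of LDHA, PDK1 and PDK3, with recurrent peaks at the start, held 4, 2 and 2 cores, that of SLC16A3 held 2 and that of CA9 held 1. The promoter windows of LDHB and SLC16A1, with peaks in 1 and 2 libraries, held 1 and 4 cores, and the promoter of CA12, which had no peak, held 2. The letters of the core alone thus did not separate the promoters with recurrent peaks from those without.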

How the data were processed

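HIF-1α and HIF-2α were immunoprecipitated from 4 cell lines in 2 replicates each (16 libraries). Per the labels and the methods, the authors trimmed reads (Trim Galore 0.3.3), aligned them to GRCh37 (BWA 0.7.5a-r405), removed duplicates (Picard 2.0.1) and called peaks per library with MACS. The deposited lists give chromosome, start, end, name and a score, a number with no fixed range. The labels do not describe this score, which was read as the peak caller's own, higher for stronger peaks, and the main tests used only its order within a library. They are lists from 1 caller without the later filters of the study, and depth is unknown.

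The members and gene lists were chosen with earlier results of these data known. Scores were turned into percentiles within a library (ties counted as no higher). Start sites came from GENCODE release 44 mapped to GRCh37, and no peak ended beyond a chromosome of that build. The 29 peaks off chromosomes 1 to 22, X and Y count in the list length only. Genes took the highest percentile within 50 kb. Isoforms were compared by an exact two-sided permutation test on the mean over lines of HIF-1α minus HIF-2α (1296 relabellings within lines), and lines by an exact one-sided test over all pairings of 8 libraries, each with Benjamini-Hochberg adjustment over all genes or sites with a peak. The tests were checked on simulated data (Python 3.11.15, numpy 2.4.6). The labels do not say that replicates are separate cultures, so p-values measure only the spread between these libraries. Named genes were the 8 members, the related genes with a peak in at least 8 libraries or otherwise the leading 5 (ties by mean percentile, with the tied LDHD and SLC4A2 added after their values were seen), and for each member with at least 8 libraries the 2 most similar genes on another chromosome or over 1 Mb away. Sequences were up to 50 bases on either side of the median centre of each site in at least 8 libraries, or of the site in most libraries. Alternatives were windows of 10 and 100 kb, nearest genes only, 1 start site per gene, presence or log10 score, a stricter score, equal list lengths, a minimum of 4 libraries, a replicate block and leaving out libraries or lines. A window of 1 kb was added after the data had been seen.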

Additional observations from a re-analysis of the deposited data

Results flagged for a closer look

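At 3 sites the isoforms stood in opposite order in different cell lines, with no overlap between replicates within those lines. They were picked for this order from the 15 sites in the windows of the 8 genes. How many of the 11664 union sites show such an order was not counted, so it cannot be called particular to these genes. With 2 libraries per group, a lack of overlap within a line is weak evidence. The difference between lines was not itself tested. At the LDHA promoter, HIF-1α minus HIF-2α was 6.93 percentile points in T47D, 6.62 in PC3 and 2.31 in HCT116, but -2.45 in A549. At the CA12 intron it was -67.3 points in A549, 38.2 in HCT116 and 66.7 in PC3. At the site over RMRP and near CCDC107, in the CA9 window, it was -33.4 points in A549, 80.5 in HCT116 and 51.2 in T47D. No HIF-2α list of HCT116 or PC3 held the CA12 peak. At the site over RMRP, no HIF-1α list of A549 and no HIF-2α list of T47D held a peak. In these cases the order only sets listed peaks against unlisted ones. A549 was the line with HIF-2α higher at all 3 sites, and it was also the line in which the HIF-2α lists (1382 and 1056 peaks) were longer than the HIF-1α lists (382 and 629 peaks). The part of list length in these differences was not tested.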

How the results depend on the processing

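Under the 31 alternatives for the isoform comparison of genes, the number of genes past an adjusted p of 0.05 stayed at 0 except in 2. With 275 peaks per list, 102 genes passed, 1 of them with HIF-2α higher. SLC16A3 and PDK1 were among the rest (exact permutation test, adjusted p = 0.0360 each). In the same setting 51 sites passed with HIF-1α higher and 0 with HIF-2α higher. How many genes and sites had a peak in the cut lists was not counted, so no share stands beside these counts. With a peak required in at least 4 libraries, 415 of 3789 genes passed, 1 of them with HIF-2α higher. SLC16A3 and PDK1 were among the rest, which made up 10.9% of the genes tested. PDK3 met this minimum through its HIF-1α libraries alone, so its value there is not used. Fewer genes tested lower the adjustment there. CA12 changed sign with equal list lengths (-22.5 points), without HCT116 (-0.209) and without PC3 (-9.7). Without any 1 library or line, the difference at LDHA ranged from 2 (without PC3 HIF-2α replicate 1) to 5.29 points (without A549). It ranged from 5.27 to 9.39 at SLC16A3 and from 10.1 to 17.0 at PDK1. At PDK3 the range was 62.8 to 84.9, which is the HIF-1α mean alone, as no HIF-2α list held a peak there. Deviations of same-numbered HIF-1α and HIF-2α libraries correlated at 0.02 in T47D, 0.09 in PC3, -0.02 in HCT116 and 0.03 in A549. The genes tested had a peak in a median of 2 libraries, so these values cannot settle whether replicate numbers pair the libraries. In PC3, replicate 1 had the shorter list for both isoforms (1517 against 3413 peaks for HIF-1α, 275 against 1290 for HIF-2α). With the replicate block, 0 genes and 0 sites passed, and the smallest p allowed was 0.00781. The line tests called 0 genes under all 5 alternatives. Their smallest exact permutation p is 0.00952, so a call after adjustment would need very many genes at that value. A like limit holds for the replicate block, so these zeros say little about stability. Members with a peak in both replicates of all 8 groups numbered 3, and 2 with equal list lengths or a stricter score (without PDK1) or within 1 kb (without SLC16A3). The difference at PDK1 was 22.8 points with equal list lengths, and at SLC16A3 17.8 points within 1 kb (exact permutation p = 0.0556). Depth limits the absences, since a peak missing from a short list may only have scored below the caller's threshold.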

Other observations

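At the SLC16A3 intron and the PDK1 promoter the closest pair of cores had the same arrangement, with CACGT followed by 4 bases and CACGT again on the plus strand, which reads as ACGTG on the other. This arrangement was noticed in these sequences and then counted, so the counts are a description. Among 300-base windows around the centres of all 11664 union sites, 30 (0.257%) held 2 copies of ACGTG in the same orientation 4 bases apart, on either strand. Among the 24 sites held in all 16 lists, 2 (8.33%) held it, and these were the SLC16A3 and PDK1 sites. At the LDHA promoter the closest pair had a wider spacing, with starts 14 bases apart against 9 at SLC16A3 and PDK1.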
